A study of Homo sapiens and Mus musculus with 16 samples.

Results

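A set of 10 noncoding RNAs that fold into stable structures was followed between P-bodies and cytoplasm. They were taken by their gene symbols from the human count table, where all 10 were present among 22286 genes. The rule itself uses no measured value, but the members were chosen with earlier results of these data known. They are RN7SK (7SK RNA), RN7SL1 and RN7SL2 (the RNA of the signal recognition particle), RMRP and RPPH1 (the RNAs of RNase MRP and RNase P), SCARNA2, SCARNA5 and SCARNA6 (small Cajal body RNAs), SNORD3A (the C/D box small nucleolar RNA called U3) and SNORA73B (an H/ACA box small nucleolar RNA).

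The study asked which RNAs are held in P-bodies, cytoplasmic condensates of RNA and RNA-binding proteins. P-bodies carrying GFP-tagged LSM14A, a P-body protein, were sorted as particles out of a pelleted cytoplasmic fraction, and the RNA of the sorted particles was sequenced beside that of the pellet. Each of the 3 human cell types has 2 P-body and 2 cytoplasm libraries. HEK293T-LSM14a-GFP cells, a human embryonic kidney line that received the tagged gene by lentivirus under the EF1a promoter, gave libraries labelled total RNA, which were primed with random primers. Liver bud progenitors and day 20 neurons were differentiated from UCLA4-LSM14a-GFP, a human embryonic stem cell line with the tagged gene at the AAVS1 locus. They gave libraries labelled polyA RNA. Their priming on poly(A) is read from this label and from the polyA-directed preparation that the paper describes. The cytoplasm libraries of each cell type carry the same tag as its P-body libraries. Because the labelled preparation differed, HEK293T values were never set against those of the other cells in a test. Cell type and preparation cannot be told apart in any contrast with HEK293T.

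The libraries held between 6368953 and 17972284 counts. A floor of 3 counts therefore stood at 0.167 to 0.471 CPM, the count of a gene scaled by the library total. The 2 neuron P-body libraries differed from each other by more than any other pair, with a chi-square per degree of freedom over genes of 21.11. It was 3.02 to 5.45 in the other human groups, and 2 and 2.76 in the groups of mouse embryonic stem cells, whose results come last. Results in neurons are also given without each of the neuron P-body libraries where that changes a call. The 6 neuron markers summed to between 9016 and 11751 CPM in the neuron libraries and to at most 197 CPM elsewhere. The 6 liver bud markers summed to between 186 and 411 CPM in the liver bud libraries and to at most 9.96 CPM elsewhere. TTR, a serum carrier protein made by liver cells, was at 0 in all HEK293T libraries. The paper describes its large-scale sequencing assays as done on biological replicates. It does not say which culture or preparation gave each library used here. The p-values measure the spread between these libraries, and how much of that spread is technical was not tested.

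As background, these RNAs work inside stable protein particles and none of them is an mRNA. RNA polymerase III makes 7SK, the signal recognition particle RNA and the RNAs of RNase P and RNase MRP. RN7SK holds the transcription elongation kinase CDK9 and its cyclin inactive in the nucleus, and RN7SL1 and RN7SL2 make the scaffold of the particle that brings ribosomes with secretory proteins to the endoplasmic reticulum. RMRP cuts precursor ribosomal RNA, and RPPH1 trims the 5′ ends of precursor tRNAs. SCARNA2, SCARNA5 and SCARNA6 guide the modification of spliceosomal RNAs in Cajal bodies, while SNORD3A and SNORA73B act in the nucleolus on precursor ribosomal RNA. Their mature forms are not known for long poly(A) tails. If primed on poly(A), the polyA-labelled libraries count those molecules that the priming reached, and how it reached them was not tested.

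RN7SL1 and RN7SL2 are near-identical copies, so reads can fit both, the division of counts between them is uncertain and their sum is given as well.

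The sequences of other members are shown with their longest stretches of A marked, since the polyA-labelled libraries are taken as primed on poly(A). Whether these stretches were primed was not tested. All are from RefSeq, in hg38, written 5′ to 3′ with T in place of U. RN7SK lies at chr6:52995620-52995951 on the plus strand and is 332 bases long, of which the first 300 are printed. RMRP spans chr9:35657750-35658019 on the minus strand, 270 bases, within 1 kb of CCDC107 and ARHGEF39. RPPH1 spans chr14:20343071-20343411 on the minus strand, 341 bases, within 1 kb of PARP2, and bases 42 to 341 are printed. SCARNA2 spans chr1:109100193-109100612 on the plus strand, 420 bases, and bases 121 to 420 are printed. RN7SL2, SCARNA2 and RPPH1 are each overlapped by an exon of an annotated long noncoding RNA on the same strand. Whether reads of these long transcripts were counted with RN7SL2, SCARNA2 or RPPH1 was not tested. Capitals mark the longest stretches of A.
RN7SK: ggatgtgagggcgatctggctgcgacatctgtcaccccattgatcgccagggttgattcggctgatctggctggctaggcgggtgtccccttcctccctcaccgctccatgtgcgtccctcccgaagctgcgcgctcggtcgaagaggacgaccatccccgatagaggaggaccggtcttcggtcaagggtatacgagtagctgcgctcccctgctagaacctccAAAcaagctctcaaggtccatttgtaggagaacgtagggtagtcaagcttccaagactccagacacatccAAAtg
RMRP: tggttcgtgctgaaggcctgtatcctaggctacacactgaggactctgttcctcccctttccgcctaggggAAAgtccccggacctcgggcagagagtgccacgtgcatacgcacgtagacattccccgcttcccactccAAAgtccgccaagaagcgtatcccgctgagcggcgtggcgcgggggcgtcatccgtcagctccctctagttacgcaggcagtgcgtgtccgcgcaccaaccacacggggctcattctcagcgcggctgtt
RPPH1: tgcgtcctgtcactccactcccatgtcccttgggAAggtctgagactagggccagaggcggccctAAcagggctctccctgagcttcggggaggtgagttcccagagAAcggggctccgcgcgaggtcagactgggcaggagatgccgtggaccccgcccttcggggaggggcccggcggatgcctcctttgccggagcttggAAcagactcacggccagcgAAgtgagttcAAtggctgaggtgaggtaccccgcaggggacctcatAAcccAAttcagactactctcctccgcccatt
SCARNA2: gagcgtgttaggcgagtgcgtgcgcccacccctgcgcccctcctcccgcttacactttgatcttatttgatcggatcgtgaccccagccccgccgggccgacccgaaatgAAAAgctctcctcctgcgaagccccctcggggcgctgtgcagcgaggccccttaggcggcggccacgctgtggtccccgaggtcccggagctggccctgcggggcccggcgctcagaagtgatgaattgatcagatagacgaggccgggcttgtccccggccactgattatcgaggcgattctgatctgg
The longest run of A was 3 bases in RN7SK and RMRP, 2 in RPPH1 and 4 in SCARNA2. SCARNA5, SCARNA6, SNORD3A and SNORA73B held no run of A longer than 4 bases.

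SCARNA5 (chr2:233275726-233276003, plus strand) and SCARNA6 (chr2:233288676-233288941, plus strand) lie in introns of ATG16L1, on its strand. SNORD3A spans chr17:19188016-19188232 on the plus strand, and SNORA73B spans chr1:28508558-28508762 on the plus strand within introns of RCC1 and SNHG3, which share that strand. The 2 snoRNAs are printed to show the letters that give the C/D and H/ACA classes their names. Capitals mark TGATGA (the core of box C) and every CTGA (the letters of box D) in SNORD3A, and the last ACA of SNORA73B, which ends 3 bases before the 3′ end. A match is a match of letters and not a mapped box.
SNORD3A: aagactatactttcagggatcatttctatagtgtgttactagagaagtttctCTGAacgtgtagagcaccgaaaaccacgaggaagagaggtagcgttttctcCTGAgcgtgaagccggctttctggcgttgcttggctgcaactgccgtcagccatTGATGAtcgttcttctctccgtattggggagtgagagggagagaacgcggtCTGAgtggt
SNORA73B: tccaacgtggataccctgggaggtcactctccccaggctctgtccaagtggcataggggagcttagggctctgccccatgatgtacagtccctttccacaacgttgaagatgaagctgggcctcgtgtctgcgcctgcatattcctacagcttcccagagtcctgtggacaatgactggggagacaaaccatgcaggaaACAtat

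Together the 10 RNAs were a larger share of the cytoplasm than of P-bodies in every human cell type. In HEK293T they summed to 1778 and 1884 CPM in the P-body libraries and to 9379 and 10463 CPM in the cytoplasm libraries. The sums in liver bud progenitors were 1718 and 1658 CPM in P-bodies and 2000.3 and 2284 CPM in cytoplasm. In neurons they were 3230.3 and 3397 CPM in P-bodies and 7532 and 7882 CPM in cytoplasm. The fractions did not overlap in any cell type, and the gap was narrowest in liver bud progenitors.

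The change of each RNA is given as the log2 ratio of P-body to cytoplasm from edgeR's quasi-likelihood test, fitted in each cell type over all genes with adjusted p-values (Benjamini-Hochberg) under 0.05 called. The fit scales libraries by TMM, so its ratio differs from that of the CPM. In HEK293T 6 of the 10 were lower in P-bodies and 0 higher, where 22.8% of the 21903 genes tested were called lower and 19.3% higher. The count of 0 stands beside 6 with an unadjusted p under 0.05, all of them the lower ones, and DESeq2 also called 0 higher. Of the 10, 6 were lower and 2 higher in liver bud progenitors, beside 17.1% and 21.4% of 21951 genes. In neurons 6 were lower and 0 higher, beside 14.1% and 14.6% of 22093 genes, and DESeq2 again called 0 higher. The median log2 change of the 10 was −0.99 in HEK293T, −0.93 in liver bud progenitors and −1.34 in neurons, beside medians of −0.01, −0.09 and 0.19 over all genes tested. All 10 passed the filter, which left out only genes with no count in the libraries compared.

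**Figure D1:**
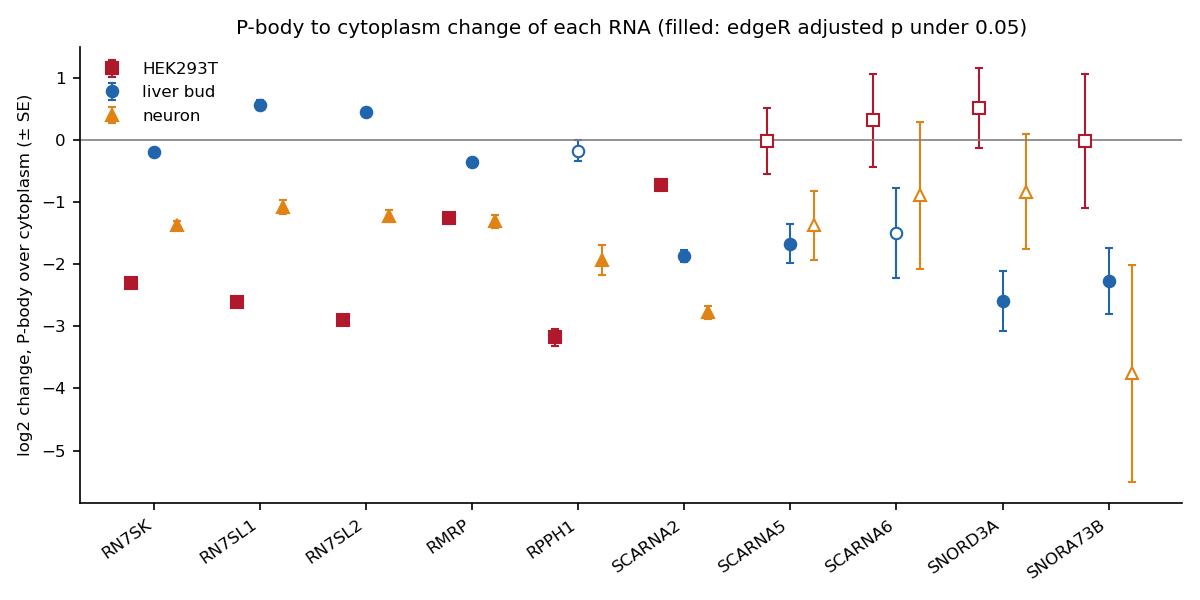
Log2 change from cytoplasm to P-bodies (vertical axis) of each of the 10 RNAs in HEK293T, liver bud progenitors and neurons, with bars of 1 SE and filled symbols for an adjusted p under 0.05. RN7SL1 and RN7SL2 lie above 0 in liver bud progenitors (0.56 and 0.45) and below it in the other cell types, while SCARNA2 is below 0 in all 3.

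RN7SK was the most abundant of the 10 in every library. In HEK293T its level was 1569.6 and 1679 CPM in P-bodies against 8226 and 9357 CPM in cytoplasm. Liver bud progenitors had 918 and 947 CPM against 1128 and 1288 CPM, and neurons 2549 and 2617 CPM against 5848 and 6076 CPM. Every P-body library lay below both cytoplasm libraries of its cell type. Ranked among all 22286 genes by mean CPM, RN7SK was at place 10 in HEK293T cytoplasm and 38 in P-bodies, 46 and 97 in liver bud progenitors, and 12 and 19 in neurons, so it remained among the highest-counted features of P-body libraries even where it was depleted.

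The fitted log2 change of RN7SK was −2.31 ± 0.05 (SE, adjusted p = 3.7e-44, edgeR) in HEK293T. It was −1.37 ± 0.06 (adjusted p = 9.13e-09) in neurons. For liver bud progenitors it was −0.19 ± 0.05 (adjusted p = 0.00123), a small change whose call was lost without P-body replicate 1 (log2 change −0.17, adjusted p = 0.0518). From pooled counts, cytoplasm exceeded P-bodies 5.39-fold in HEK293T, 2.3-fold in neurons and 1.3-fold in liver bud progenitors.

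The signal recognition particle RNAs went in opposite directions in different cells. In HEK293T RN7SL1 measured 56.6 and 50.2 CPM in P-bodies and 379.9 and 333.5 CPM in cytoplasm. RN7SL2 measured 64.9 and 64.7 CPM in P-bodies and 538 and 520.3 CPM in cytoplasm. Both were far lower in every P-body library, with log2 changes of −2.61 ± 0.07 (SE, adjusted p = 5.47e-38) for RN7SL1 and −2.90 ± 0.06 (adjusted p = 7.03e-43) for RN7SL2. In neurons RN7SL1 was 157 and 203 CPM in P-bodies against 311 and 368 CPM in cytoplasm. RN7SL2 was 335 and 409 CPM in neuron P-bodies against 719.7 and 835 CPM in cytoplasm. They were lower there as well, by −1.08 ± 0.12 (adjusted p = 1.38e-05) and −1.23 ± 0.10 (adjusted p = 9.64e-07) on the log2 scale.

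The order was turned in liver bud progenitors. RN7SL1 measured 187 and 140.5 CPM in P-bodies and 139.9 and 113 CPM in cytoplasm, so the lowest P-body library stood just above the highest cytoplasm library. RN7SL2 measured 328 and 274 CPM in P-bodies and 251 and 249 CPM in cytoplasm, without overlap. The log2 change was 0.56 ± 0.09 (SE, adjusted p = 7.86e-08, edgeR) for RN7SL1 and 0.45 ± 0.07 (adjusted p = 2.41e-08) for RN7SL2. With each library left out, the value for RN7SL1 ran from 0.34 (without P-body replicate 1) to 0.76 (without P-body replicate 2) and stayed called (highest adjusted p = 0.00359). With DESeq2 the call for RN7SL1 was lost (log2 change 0.54, adjusted p = 0.0901). With the 2 copies summed before the fit, the change was 0.49 (adjusted p = 7.07e-10) in liver bud progenitors, −2.78 in HEK293T and −1.18 in neurons, so these directions do not rest on how reads were divided between the copies.

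**Figure D2:**
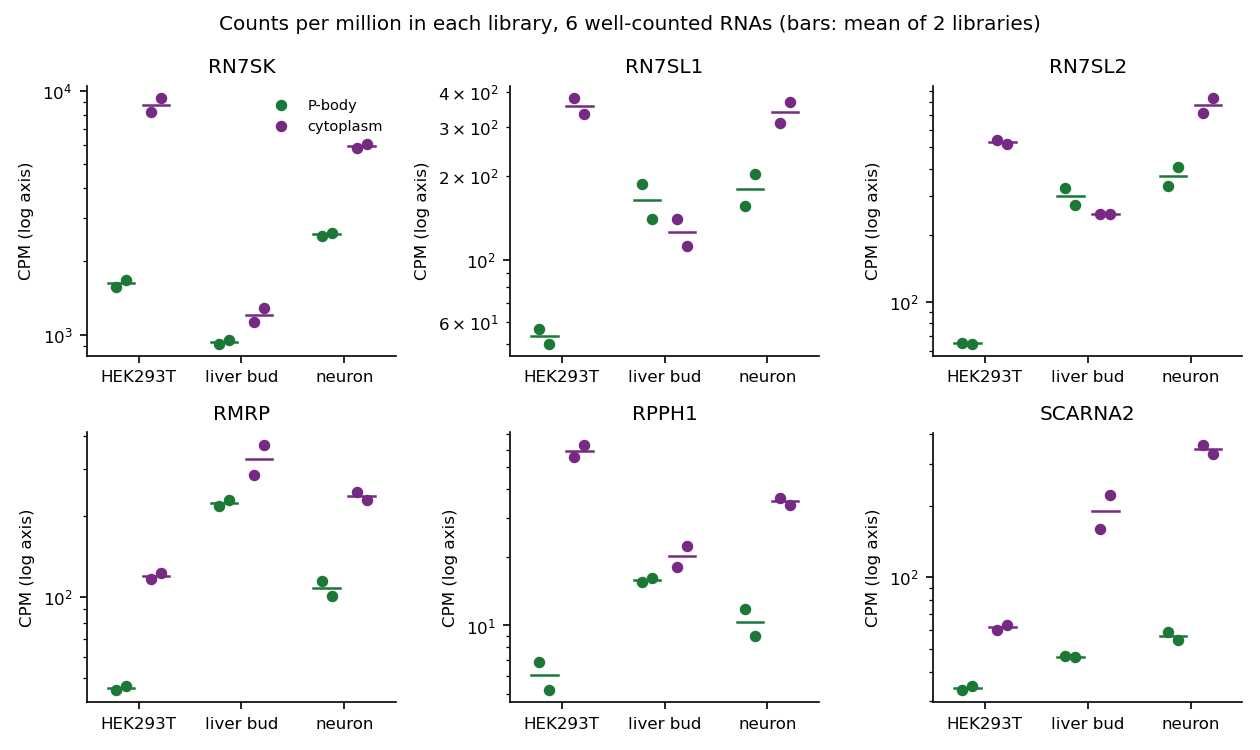
CPM on a log axis in each library of the 3 human cell types for the 6 RNAs with the most counts, with P-body and cytoplasm libraries side by side and bars at the mean of 2 libraries. P-body points lie below cytoplasm points in every panel except RN7SL1 and RN7SL2 in liver bud progenitors, where they lie above.

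RMRP was lower in P-bodies in all 3 cell types. In HEK293T it measured 45.0 and 46.6 CPM in P-bodies and 117 and 123 CPM in cytoplasm (log2 change −1.26 ± 0.08, SE, adjusted p = 1.3e-20). Liver bud progenitors had 218 and 230.5 CPM of RMRP in P-bodies and 284 and 369.7 CPM in cytoplasm (−0.36 ± 0.07, adjusted p = 1.9e-05). In neurons it measured 115 and 101 CPM in P-bodies and 247 and 231 CPM in cytoplasm (−1.31 ± 0.11, adjusted p = 1.44e-06). The fractions did not overlap in any of them. The size in liver bud progenitors depended on single libraries and ran from −0.55 to −0.19 when each was left out in turn, with the call kept each time (highest adjusted p = 0.0216).

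RPPH1 had the steepest fitted change of the 6 well-counted RNAs in HEK293T. It measured 6.86 and 5.17 CPM in P-bodies and 55.7 and 63.0 CPM in cytoplasm, a 9.95-fold excess of cytoplasm in pooled counts (log2 change −3.18 ± 0.14, SE, adjusted p = 6e-28). In neurons it measured 11.8 and 8.98 CPM in P-bodies and 36.6 and 34.1 CPM in cytoplasm (−1.93 ± 0.23, adjusted p = 3.52e-05). It was not called in liver bud progenitors, which had 15.6 and 16.2 CPM in P-bodies against 18.1 and 22.5 CPM in cytoplasm, with a log2 change of −0.17 ± 0.17 (adjusted p = 0.481). PARP2, the neighbour that encodes a poly(ADP-ribose) polymerase, went the other way and was higher in P-bodies in all 3 cell types, with log2 changes of 1.12, 0.85 and 1.34 in HEK293T, liver bud progenitors and neurons. CCDC107, the neighbour of RMRP, was lower in HEK293T P-bodies (−1.52) and was not called in liver bud progenitors (−0.04) or neurons (−0.72).

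The 2 RNase RNAs did not keep a fixed proportion. For each RPPH1 count, HEK293T P-body libraries held 6.55 and 9.01 RMRP counts and the cytoplasm libraries 2.1 and 1.95. In neurons the ratio was 9.72 and 11.3 in P-bodies and 6.75 and 6.77 in cytoplasm. Liver bud progenitors had ratios of 14.0 and 14.3 in P-bodies and 15.7 and 16.4 in cytoplasm. These ratios are taken within a library and so do not depend on how libraries were scaled. The ratio was higher in P-bodies in HEK293T and neurons and lower in liver bud progenitors, without overlap of the fractions in any of the 3. With 2 libraries against 2, the comparison is a description and was given no test.

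SCARNA2, which guides methylation of the spliceosomal U2 RNA, was lower in P-bodies everywhere, least so in HEK293T. In HEK293T it measured 33.5 and 34.8 CPM in P-bodies and 60.1 and 63.2 CPM in cytoplasm (log2 change −0.72 ± 0.10, SE, adjusted p = 6.47e-09). Liver bud progenitors had 46.6 and 46.0 CPM of SCARNA2 in P-bodies and 160.5 and 222 CPM in cytoplasm (−1.86 ± 0.09, adjusted p = 3.4e-27). In neurons it measured 58.6 and 54.6 CPM in P-bodies and 361 and 329.8 CPM in cytoplasm (−2.78 ± 0.11, adjusted p = 3.93e-09). In pooled counts cytoplasm exceeded P-bodies 1.8-fold, 4.18-fold and 6.13-fold in these 3 cell types.

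Relative to RN7SK, SCARNA2 changed in opposite directions in HEK293T and in the polyA-labelled cell types. Cell type and preparation cannot be told apart in this contrast. SCARNA2 counts were 2.13% and 2.07% of RN7SK counts in HEK293T P-bodies and 0.731% and 0.675% in cytoplasm. They were 5.08% and 4.85% in liver bud P-bodies and 14.2% and 17.2% in cytoplasm. In neurons they were 2.3% and 2.09% in P-bodies and 6.18% and 5.43% in cytoplasm. The fractions did not overlap in any cell type.

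Signal recognition particle RNA per RN7SK count moved differently again. The ratio of RN7SL1 plus RN7SL2 to RN7SK was 0.0774 and 0.0684 in HEK293T P-bodies and 0.112 and 0.0912 in cytoplasm. In liver bud progenitors it was 0.561 and 0.438 in P-bodies and 0.346 and 0.281 in cytoplasm. In neurons the fractions overlapped, at 0.193 and 0.234 in P-bodies and 0.176 and 0.198 in cytoplasm. RN7SK alone made up 77.0% or more of the counts of the 10 RNAs in HEK293T and neurons and 53.4% to 57.1% of them in liver bud progenitors, and its share overlapped between the fractions in each cell type.

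**Figure D3:**
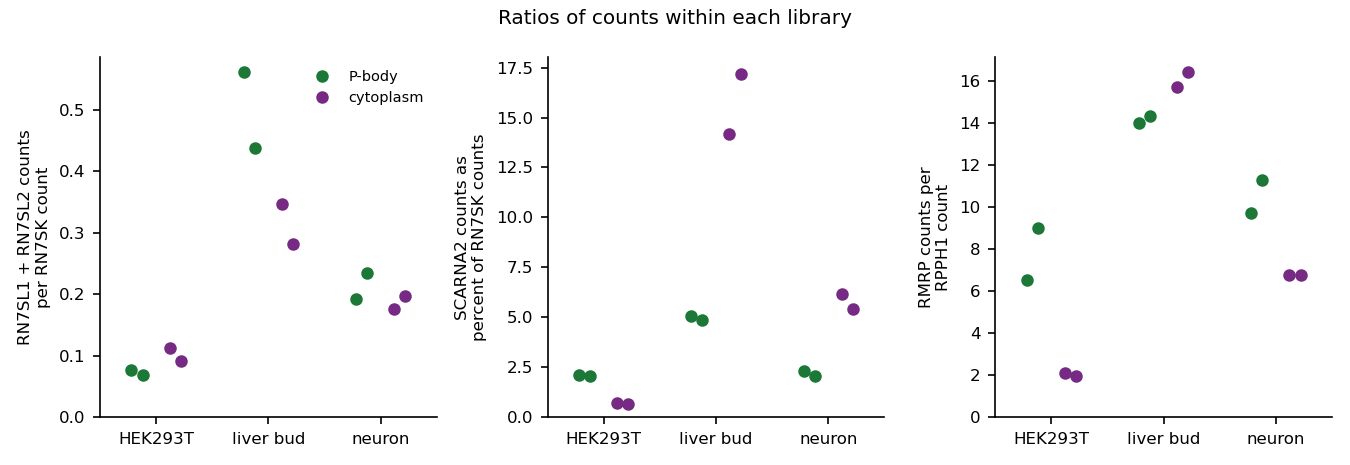
Ratios of counts within each library for P-body and cytoplasm libraries of the 3 human cell types: signal recognition particle RNA per RN7SK count, SCARNA2 as a percent of RN7SK counts, and RMRP counts per RPPH1 count. SCARNA2 as a percent of RN7SK is about 2 in HEK293T P-bodies against under 1 in cytoplasm, and the order is turned in liver bud progenitors and neurons.

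The RNAs with few counts gave less certain values. SCARNA5 measured 2.62 and 2.34 CPM in liver bud P-bodies and 9.58 and 8.45 CPM in cytoplasm, from 25, 24, 61 and 63 counts, and was lower in P-bodies (log2 change −1.67 ± 0.31, SE, adjusted p = 6.36e-06, edgeR). In neurons it measured 1.97 and 1.90 CPM in P-bodies and 4.62 and 4.35 CPM in cytoplasm, a gap in the same direction without overlap that missed the threshold (−1.37 ± 0.56, adjusted p = 0.0842). The adjusted p was 0.0256 without P-body replicate 1 and 0.0357 without P-body replicate 2, where the lone P-body library is assumed to vary like the cytoplasm libraries, and it was 0.448 without cytoplasm replicate 1. In HEK293T its fractions overlapped, at 0.915 and 1.11 CPM in P-bodies and 0.837 and 1.43 CPM in cytoplasm (−0.02 ± 0.54, adjusted p = 0.983).

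SCARNA6, the neighbour of SCARNA5 in the same host gene, had at most 18 counts in any library and was called in no cell type. It measured 0.629 and 0.389 CPM in liver bud P-bodies and 1.41 and 1.88 CPM in cytoplasm (log2 change −1.50 ± 0.73, SE, adjusted p = 0.102). Its fractions overlapped in HEK293T (0.32 ± 0.75, adjusted p = 0.796) and in neurons (−0.89 ± 1.19, adjusted p = 0.601). ATG16L1, the autophagy gene whose introns hold both, was higher in P-bodies of HEK293T (1.03) and was not called in neurons (0.29). Its value in liver bud progenitors was −0.49, not called with TMM (adjusted p = 0.0626), DESeq2 or a single fit of all 12 human libraries. It was called as lower with RLE (the size factors of DESeq2), library totals (−0.67), ribosomal RNA genes left out, filterByExpr (a stricter filter on low counts) and the replicate number as a block.

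SNORD3A was lower in P-bodies of liver bud progenitors, with 12 and 3 counts (1.26 and 0.292 CPM) in P-bodies and 28 and 46 counts (4.40 and 6.17 CPM) in cytoplasm. Its log2 change there was −2.59 ± 0.49 (SE, adjusted p = 6.54e-06), and the pooled ratio of P-bodies to cytoplasm was 0.141 with an exact 95% interval for counting error of 0.0754 to 0.249. The size rested on the spread of the P-body libraries, since it was −3.94 without replicate 1 and −1.88 without replicate 2. In HEK293T (0.52 ± 0.65, adjusted p = 0.596) and neurons (−0.83 ± 0.92, adjusted p = 0.535) the fractions overlapped.

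SNORA73B was likewise lower in liver bud P-bodies, with 8 and 5 counts (0.838 and 0.487 CPM) against 21 and 30 counts (3.30 and 4.03 CPM) in cytoplasm (log2 change −2.27 ± 0.53, SE, adjusted p = 0.000252). In neurons it had 1 and 0 counts in P-bodies and 8 and 10 in cytoplasm, a pooled ratio of 0.067 with an exact 95% interval of 0.00161 to 0.424, and missed the threshold (adjusted p = 0.13). In HEK293T it had 4 and 5 counts in P-bodies and 6 and 1 in cytoplasm, so no difference was detectable at this depth. SNHG3, a noncoding host transcript of SNORA73B, was lower in P-bodies of HEK293T (−2.31) and liver bud progenitors (−2.53) and was not called in neurons (−0.30). RCC1, the other host and a nucleotide exchange factor for Ran, was lower in HEK293T (−0.86) and was not called in liver bud progenitors (−0.28) or neurons (−0.19), and whether these effects differ between HEK293T and the other cells was not tested.

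**Figure D4:**
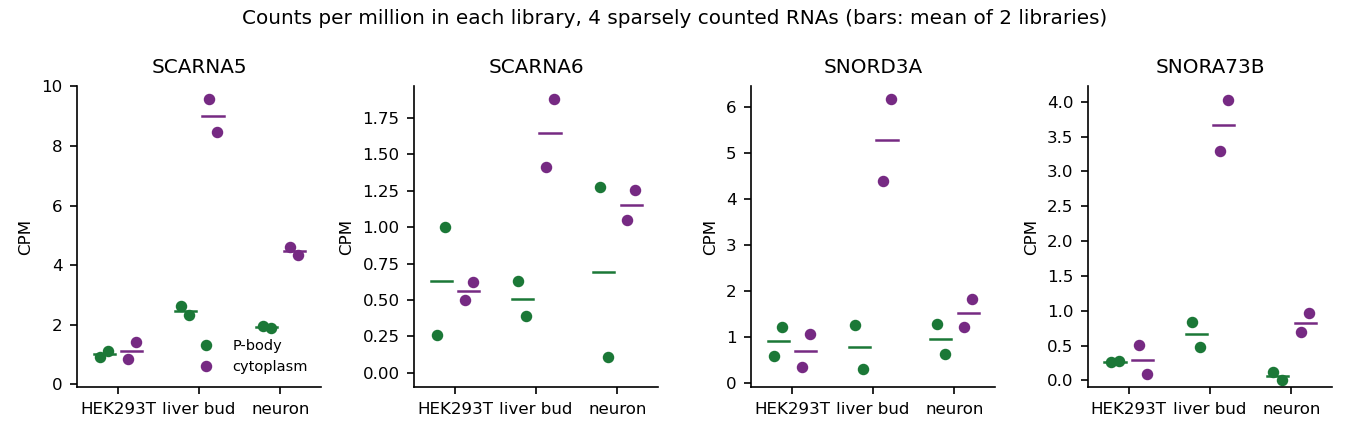
CPM in each library of the 3 human cell types for the 4 RNAs with few counts, P-body and cytoplasm libraries side by side with bars at the mean of 2 libraries. In liver bud progenitors all cytoplasm points lie above all P-body points, while in HEK293T the fractions overlap in each panel.

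The polyA-labelled cell types share their library label, so the difference between their P-body changes was tested as an interaction over their 8 libraries. The change from cytoplasm to P-bodies was lower in neurons than in liver bud progenitors for 6 of the 10 RNAs and higher for 0, where 8.5% of the 22268 genes tested were called lower and 9.21% higher. The 6 were RN7SK, RN7SL1, RN7SL2, RMRP, RPPH1 and SCARNA2, the well-counted ones, and the same 6 had an unadjusted p under 0.05. DESeq2 also called 0 higher. The median difference of the 10 was −1.08, beside 0.23 over all genes.

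The difference was −1.69 ± 0.13 on the log2 scale (SE, adjusted p = 5.49e-07, edgeR) for RN7SL2 and −1.65 ± 0.19 (adjusted p = 2.43e-05) for RN7SL1, the RNAs that went in opposite directions in the 2 cell types. It was −1.19 ± 0.09 (adjusted p = 3.99e-07) for RN7SK and −0.96 ± 0.17 (adjusted p = 0.000781) for RMRP. RPPH1, called in neurons and not in liver bud progenitors, differed by −1.77 ± 0.30 (adjusted p = 0.000692). SCARNA2, lower in P-bodies of both, differed by −0.92 ± 0.19 (adjusted p = 0.0027). For SCARNA5 (0.29 ± 0.57), SCARNA6 (0.59 ± 1.39), SNORD3A (1.75 ± 1.01) and SNORA73B (−1.49 ± 1.37) the difference missed the threshold, and these errors are wide enough to hold differences of several fold.

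How libraries are scaled shifts all such values together. With library totals in place of TMM, the median log2 difference over all genes in this interaction was 0.58, and the calls were 3520 higher and 940 lower in place of 2050 higher and 1892 lower. The 6 RNAs stayed called with differences of −0.83 (RN7SK), −1.29 (RN7SL1), −1.33 (RN7SL2), −0.60 (RMRP), −1.41 (RPPH1) and −0.56 (SCARNA2). For liver bud progenitors library totals gave 3822 genes higher and 4850 lower in place of 4708 and 3747, a median of −0.28, and changes of 0.38 for RN7SL1 and 0.27 for RN7SL2. In neurons they gave 3839 higher and 2356 lower in place of 3220 and 3123, with a median of 0.35.

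Ribosomal RNA was a smaller share of every P-body group. It took 4.75% and 4.32% of counts in HEK293T P-bodies and 16.6% and 15.9% in cytoplasm. Its share in liver bud progenitors was 12.8% and 12.5% in P-bodies and 20.4% and 21.1% in cytoplasm, and in neurons 13.4% and 11.4% against 24.9% and 21.5%. Each fraction of the polyA-labelled cell types thus held a larger ribosomal share than the same fraction of HEK293T. How the polyA-labelled libraries were primed was not tested. With these genes left out before scaling, the log2 change of RN7SK was −2.28, −0.21 and −1.39 in the 3 cell types, that of RN7SL2 was −2.88, 0.43 and −1.24, and the counts of members called were the same in each comparison.

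RNAs known to stay in the nucleus were lower in liver bud P-bodies, as were SCARNA2, SCARNA5, SNORD3A and SNORA73B, but not in HEK293T P-bodies. MALAT1, NEAT1, KCNQ1OT1 and MEG3 together summed to 501 and 521 CPM in HEK293T P-bodies and 381 and 359 CPM in cytoplasm. In liver bud progenitors they summed to 1093.6 and 1035 CPM in P-bodies and 2977 and 2910 CPM in cytoplasm, and in neurons to 743 and 835 CPM against 1361.5 and 1509 CPM. Thus 4 of the 4 were lower in liver bud P-bodies, with log2 changes from −1.96 (KCNQ1OT1) to −0.85 (MALAT1), beside 17.1% of all genes. In neurons 2 of 4 were lower (MALAT1 at −1.21 and MEG3 at −1.1), beside 14.1% of all genes, and 3 of 4 in the fit of 12 libraries. In HEK293T 3 of 4 were higher in P-bodies, beside 19.3% of all genes, led by NEAT1 at 1.61, while SCARNA2 was lower. With library totals NEAT1 alone of the 4 was called. In the interaction 3 of the 4 had a higher P-body change in neurons than in liver bud progenitors, beside 9.21% of all genes. That of SCARNA2 was lower in neurons (−0.92). The part of nuclear RNA in the levels of SCARNA2, SCARNA5, SNORD3A and SNORA73B was not tested.

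Levels were also compared between the RNAs as CPM per kb of RefSeq length. In HEK293T cytoplasm the order was RN7SK (24778 and 28184 CPM per kb), RN7SL2 (1799 and 1740.04), RN7SL1 (1271 and 1116), RMRP (433 and 455), RPPH1 (163 and 185) and SCARNA2 (143 and 150.4), and no neighbours in this order overlapped. In liver bud cytoplasm RN7SK (3398 and 3879 CPM per kb) was followed by RMRP (1053 and 1369) and RN7SL2 (839 and 833), while RN7SL1 (468 and 377) and SCARNA2 (382 and 528) overlapped. In neuron cytoplasm RN7SK (17616 and 18300.3 CPM per kb) was followed by RN7SL2 (2407 and 2794) and RN7SL1 (1039 and 1232), while RMRP (915 and 855) and SCARNA2 (861 and 785) overlapped. SCARNA2 thus stood below RPPH1 in HEK293T cytoplasm and above it in liver bud and neuron cytoplasm, a contrast in which cell type and preparation cannot be told apart. In cytoplasm RPPH1 measured 53.0 and 66.1 CPM per kb in liver bud progenitors and 107 and 100.1 in neurons. Each value is a share of a bulk library, so fewer cells holding an RNA and less of it per cell cannot be told apart.

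Likeness to RN7SK was measured over the 4317 other genes that averaged 20 CPM or more in each human cell type. The 3 whose changes in the 3 cell types lay nearest to those of RN7SK were ERI3, which encodes an exoribonuclease of the ERI family, and the ribosomal RNA genes RNA28SN5 and RNA28SN1. Likeness was the Euclidean distance between the 3 log2 changes. ERI3 had changes of −2.23, 0.04 and −1.31 in HEK293T, liver bud progenitors and neurons, a distance of 0.25. RNA28SN5 had −2.47, −0.30 and −1.05, a distance of 0.381, and RNA28SN1 had −2.38, −0.44 and −1.04, a distance of 0.419. RNA28SN5 and RNA28SN1 are copies of a repeated gene, so the division of counts between them is uncertain.

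The mRNAs listed for protein partners of these RNAs and for small RNA maturation moved in both directions. The list also holds binders of other RNAs, such as RO60 and LARP1. Of the 45 mRNAs listed, 15 were higher and 19 lower in HEK293T P-bodies, 20 higher and 3 lower in liver bud progenitors, and 13 higher and 6 lower in neurons (10 lower in the fit of 12 libraries). Over all genes tested 19.3% were higher and 22.8% lower in HEK293T, 21.4% and 17.1% in liver bud progenitors and 14.6% and 14.1% in neurons, and these shares are the background for the counts of each particle as well. The median log2 changes of the 45 were −0.08, 0.39 and −0.04, beside −0.01, −0.09 and 0.19 over all genes. With library totals in place of TMM the liver bud counts were 15 higher and 7 lower, and with DESeq2 14 higher and 3 lower. In the interaction 3 had a higher P-body change in neurons than in liver bud progenitors and 10 a lower one, beside 9.21% higher and 8.5% lower over all genes, a balance that turned to 7 higher and 5 lower with library totals.

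Of the 8 mRNAs listed for the 7SK particle, not all of which encode its subunits, 4 were higher and 1 lower in HEK293T P-bodies. In liver bud progenitors 3 were higher and 2 lower, and in neurons 3 higher and 1 lower. LARP7, which binds the 3′ end of RN7SK and protects it, was higher in P-bodies of all 3 cell types, with log2 changes of 1.54 ± 0.05, 1.47 ± 0.07 and 2.85 ± 0.12 (SE) in HEK293T, liver bud progenitors and neurons. CCNT1, a cyclin partner of CDK9, was higher as well (0.77, 1.08 and 1.18). CDK9 was lower in all 3 (−1.18, −0.70 and −0.88). LARP7 and CCNT1 mRNA thus went opposite to RN7SK, and CDK9 mRNA in its direction.

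Of the 8 mRNAs of the signal recognition particle and its receptor, 2 were higher and 3 lower in HEK293T P-bodies, 3 higher in liver bud progenitors with the other 5 not called, and 2 higher and 2 lower in neurons. In liver bud progenitors library totals gave 2 higher and 2 lower, and DESeq2 2 higher and 0 lower. SRP9, which with SRP14 binds the Alu domain of the RNA, was lower in HEK293T (−1.24) and higher in liver bud progenitors (0.96), and its value in neurons was 0.14 (not called). SRP14 was lower in HEK293T (−1.24) and neurons (−0.77), with 0.09 in liver bud progenitors (not called). SRPRB, a subunit of the receptor, was lower in HEK293T (−1.44) and neurons (−0.84), with 0.23 in liver bud progenitors (not called). The P-body change of each of these 3 mRNAs was lower in neurons than in liver bud progenitors, by −0.82 (SRP9), −0.87 (SRP14) and −1.08 (SRPRB), although with library totals those of SRP9 (−0.47) and SRPRB (−0.72) were no longer called. SRP72, higher in P-bodies of all 3 cell types (0.66, 1.12 and 0.37), had a difference of −0.76.

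Of the 11 mRNAs of RNase P and RNase MRP, 8 were lower and 2 higher in HEK293T P-bodies, 4 higher in liver bud progenitors with the other 7 not called, and 1 higher in neurons with the other 10 not called. POP1, the largest shared subunit, was higher in all 3 (1.22, 1.1 and 1.69). POP5 (−1.89) and RPP40 (−1.42) were among the 8 lower ones in HEK293T and were called in no other cell type. DESeq2 called 6 of the 11 lower in HEK293T and the fit of 12 libraries 4, without RPP40 (adjusted p = 0.102). In liver bud progenitors each of these called 2 of the 11 higher.

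The 8 mRNAs of H/ACA and Cajal body particles had 3 higher and 4 lower in HEK293T, 4 higher in liver bud progenitors and 3 higher in neurons, with the others not called in those cells. DESeq2 and library totals each called 2 of the 8 higher in liver bud progenitors. DKC1, the pseudouridine synthase of H/ACA particles, was higher in P-bodies of all 3 (0.57, 0.59 and 0.77), and so was COIL, the scaffold of Cajal bodies (1.04, 1.21 and 1.37). WRAP53, which carries scaRNAs to Cajal bodies, was lower in HEK293T (−1.63) and was not called in neurons (−0.998). Its value in liver bud progenitors was −0.97, just short of a call with TMM (adjusted p = 0.0525) and called as lower with RLE, library totals, ribosomal RNA genes left out and filterByExpr.

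For C/D particles and U3, 1 of the 5 mRNAs was higher and 2 lower in HEK293T, 4 higher in liver bud progenitors with the other not called, and 1 higher and 2 lower in neurons. FBL, the methyltransferase of C/D particles, was lower in HEK293T (−1.53) and neurons (−1.06) and higher in liver bud progenitors (0.43), a call that library totals (0.25) and DESeq2 (0.42) did not make. SNU13, which binds the C/D motif, went the same way (−1.38, −0.88 and 1.01 in that order of cells), and the difference between neurons and liver bud progenitors was −1.50 for FBL and −1.90 for SNU13, both called. NOP58, a core protein of the particle, was higher in all 3 (1.32, 1.12 and 1.67). The 5 mRNAs of small RNA maturation had 3 higher and 1 lower in HEK293T, 2 higher and 1 lower in liver bud progenitors, and 3 higher and 1 lower in neurons. SSB, the La protein that binds the ends of new polymerase III transcripts (0.67, 1.13 and 1.23), and RO60, which binds Y RNAs (0.75, 1.34 and 0.83), were higher in P-bodies of all 3 cell types, and LARP1, a binder of ribosomal protein mRNAs, was lower (−0.33, −0.64 and −0.96).

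**Figure D5:**
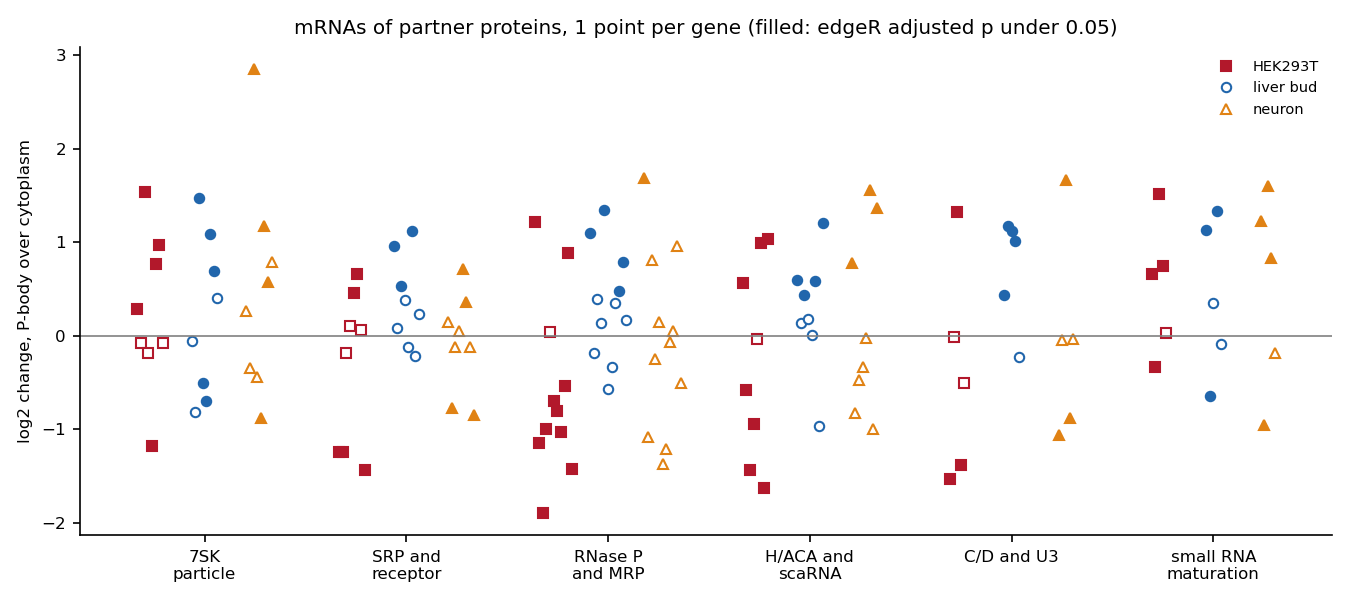
Log2 change from cytoplasm to P-bodies (vertical axis) of the 45 mRNAs listed for partner proteins and small RNA maturation, 1 point per gene. They are grouped by particle with HEK293T, liver bud progenitors and neurons side by side, and filled symbols have an adjusted p under 0.05. The RNase P and MRP group has 8 filled points below 0 in HEK293T, and the points below 0 in the other cell types are open.

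The table holds 98 other small noncoding RNAs, mostly with few counts. In HEK293T 15 of the 88 tested were lower in P-bodies and 0 higher in the edgeR test, where the 17 with an unadjusted p under 0.05 were all lower, and DESeq2 called 6 lower and 0 higher. That share was below the 22.8% called lower over all genes. Among 96 tested in liver bud progenitors, 22 were lower and 4 higher (8 and 2 with DESeq2), beside 17.1% lower and 21.4% higher over all genes. Among 94 tested in neurons, 7 were lower and 0 higher, the 18 with an unadjusted p under 0.05 were again all lower, and DESeq2 called 5 lower and 0 higher. That share too was below the background (14.1%), although 19 were called lower in the fit of 12 libraries. Their median log2 changes were −1.14, −1.28 and −2.27, below the medians over all genes. In the interaction 3 of 98 had a lower P-body change in neurons than in liver bud progenitors and 0 a higher one with edgeR and with DESeq2, and the 5 with an unadjusted p under 0.05 were all lower, a share below the 8.5% called lower over all genes.

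RN7SL3, another copy related to RN7SL1 and RN7SL2, had the same pattern as they did. It measured 3.53 and 4.17 CPM in HEK293T P-bodies and 20.0 and 20.9 CPM in cytoplasm (log2 change −2.27 ± 0.19, SE, adjusted p = 2.73e-16). Liver bud progenitors had 12.7 and 10.6 CPM of it in P-bodies and 5.81 and 7.11 CPM in cytoplasm (1.03 ± 0.24, adjusted p = 0.000236). BCYRN1, a polymerase III transcript with an Alu domain related to that of the signal recognition particle RNA, did likewise. It measured 2.75 and 4.01 CPM against 12.9 and 17.0 CPM in HEK293T (−2.00 ± 0.21, adjusted p = 2.58e-12) and 9.22 and 9.83 CPM against 3.61 and 5.77 CPM in liver bud progenitors (1.19 ± 0.27, adjusted p = 0.000169). In neurons both were sparse and not called, and the interaction was −2.84 for RN7SL3 (adjusted p = 0.00909) and −3.10 for BCYRN1 (adjusted p = 0.0167). Reads of the related copies and of Alu repeats can be assigned to either of these genes, so their values are uncertain to that extent.

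The Y RNA RNY3, a polymerase III transcript bound by RO60, was lower in P-bodies of HEK293T (−2.78) and neurons (−2.67) and had −0.47 in liver bud progenitors (not called), with an interaction of −2.21 (adjusted p = 0.0126). SCARNA12, another small Cajal body RNA, was lower in all 3 cell types (−0.79, −1.87 and −1.66). SNORA73A, the neighbour and relative of SNORA73B, was lower in liver bud progenitors (−2.53) and in neurons (−5.30, from 1 and 0 counts in P-bodies against 31 and 22 in cytoplasm) and was not called in HEK293T (−0.18), so reads shared between SNORA73A and SNORA73B leave the division between them uncertain.

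In mouse embryonic stem cells (mESC, line KH2 with lentiviral GFP-LSM14A, grown in serum with LIF), also prepared as random-primed total RNA, 2 of the 10 counterparts were in the count table and both were lower in P-bodies, where 20.6% of the 15881 genes tested were called lower and 25.8% higher. The paper's methods describe mouse embryonic stem cells kept in a naive medium with small-molecule inhibitors and LIF, a difference left unresolved here. Rmrp measured 2.47 and 3.4 CPM in P-bodies and 8.96 and 10.3 CPM in cytoplasm (log2 change −1.31 ± 0.25, SE, adjusted p = 8.8e-05). Rpph1 measured 22.8 and 26.3 CPM in P-bodies and 55.5 and 66.0 CPM in cytoplasm (−0.91 ± 0.11, adjusted p = 1.58e-07). The fractions did not overlap for either. The other 8 counterparts were not analysed here.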

How the data were processed

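The 12 human libraries (HEK293T, liver bud progenitors and neurons) and 4 mouse libraries were used as the read counts per gene that the authors deposited. Per the methods, cells were lysed with detergent, nuclei were spun out, the cytoplasm was pelleted and P-bodies were sorted from it. SnapTotal-seq reads were quantified by the authors with salmon on hg38 or mm10 refGene. For Smart-seq the methods name hisat and featureCounts, and the table does not say which route made the polyA-labelled columns, so reads of near-identical copies may have been divided or dropped. Genes with fewer than 10 counts in all had been removed by the authors. The 4 deposited tables of the authors' own fold changes and p-values were not used.

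Groups follow the labels. edgeR 4.0.16 (R 4.3.3) was fitted in each cell type on 4 libraries with TMM, and on 8 libraries for the interaction. Counts of members were read beside the share of all genes called. Exact binomial intervals (95%) and the floor of 3 counts cover counting error only. Sequences, lengths and positions came from RefSeq. The sequences of RN7SL1 and RN7SL2 are not reported here. Genes named are the 10 members, genes of the partner, small RNA, nuclear, host and marker lists where a count turns on them, and the 3 genes nearest to RN7SK. Members and lists were chosen with earlier results of these data known. Tested on simulated counts in which 200 genes had a log2 change of 1.5, the fit recovered 99.5% (HEK293T), 98.5% (liver bud), 84% (neuron) and 71.5% (interaction) of them. Among the other genes, simulated without change, it called 19, 14, 23 and 25 in that order. The 200 were drawn from genes counted more deeply than SCARNA5, SCARNA6, SNORD3A and SNORA73B, so the recovery does not apply to these. Far fewer genes changed in the simulation than were called in the data. Alternatives were RLE scaling, library totals, ribosomal RNA genes left out, filterByExpr, DESeq2 1.42.0, all 12 human libraries together, a replicate block, summed RN7SL1 and RN7SL2, and each library left out.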

Additional observations from a re-analysis of the deposited data

Results flagged for a closer look

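For 6 RNAs the change from cytoplasm to P-bodies differed between neurons and liver bud progenitors in the interaction test over 8 libraries (edgeR, adjusted p under 0.05). The difference, neurons minus liver bud progenitors on the log2 scale, was −1.19 for RN7SK, −1.65 for RN7SL1, −1.69 for RN7SL2, −0.96 for RMRP, −1.77 for RPPH1 and −0.92 for SCARNA2. Over the alternatives the value ran from −1.3 to −0.83 for RN7SK (highest adjusted p = 1.47e-05), from −1.75 to −1.29 for RN7SL1 (0.000377), from −1.8 to −1.33 for RN7SL2 (1.65e-05), from −1.07 to −0.60 for RMRP (0.0126), from −1.88 to −1.41 for RPPH1 (0.00263) and from −1.03 to −0.56 for SCARNA2 (0.0364). The 2 neuron P-body libraries differed more from each other than the pairs of other groups. With each of the 8 libraries left out in turn all 6 remained called, with a highest adjusted p of 0.0188 (SCARNA2).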

How the results depend on the processing

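Over 529 values of single members and alternatives, 505 kept direction and side of the threshold. The number of members higher in liver bud P-bodies fell from 2 to 1 with DESeq2 and to 1 with RN7SL1 and RN7SL2 summed, the latter because the copies then count once. With each library left out, 6 members were lower in HEK293T each time, 5 to 6 in liver bud progenitors (RN7SK was lost without P-body replicate 1) and 6 to 7 in neurons (SCARNA5 was gained without either P-body replicate, where the lone P-body library is assumed to vary like the others, while its adjusted p rose to 0.448 without cytoplasm replicate 1), while 2 stayed higher in liver bud progenitors and 6 stayed lower in the interaction. With all 12 human libraries in a single fit, SCARNA5 (−1.49, adjusted p = 0.00841) and SNORA73B (−3.9, adjusted p = 0.0139) were also called in neurons, and with filterByExpr SCARNA6 in liver bud progenitors (−1.59, adjusted p = 0.0353). The cause was not tested.

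Only sparse members turned direction, none of them called. In HEK293T SCARNA5 was 0.0702 with RLE, 0.00267 without ribosomal RNA genes, 0.0376 with filterByExpr, 0.0664 with DESeq2 and 0.106 in the fit of 12 libraries, and SNORA73B was 0.0619 with RLE, 0.0694 with DESeq2 and 0.103 in the fit of 12 libraries. With each HEK293T library left out, SCARNA5 ran from −0.318 to 0.411, SCARNA6 from −0.948 to 0.946, SNORD3A from −0.11 to 1.56 and SNORA73B from −0.744 to 1.67. The interaction of SCARNA6 ran from −2.06 (without neuron P-body replicate 1) to 1.37 (without neuron P-body replicate 2).

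Same-numbered libraries did not deviate together (correlations of −0.01, −0.02 and −0.01 in HEK293T, liver bud progenitors and neurons, and 0.06 in mESC). The methods keep sorted P-bodies beside aliquots of the corresponding cytoplasm. Whether same-numbered libraries come from the same preparation cannot be decided from these correlations, since noise of single libraries can hide what they share. With the replicate block 6 members were lower in each human cell type, 2 higher in liver bud progenitors and 6 lower in the interaction, as without it, and SNORA73B in HEK293T turned to 0.164. Depth limits SCARNA6, SNORD3A and SNORA73B, which had at most 46 counts in any library.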
